A study of Homo sapiens with 2 samples.

Results

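The genes described here drive the passage of a cell from G2 through mitosis. They are 40 genes of the G2/M programme, taken by name and chosen with earlier results of these data known. Every probe set that the array's annotation gives to exactly 1 of them was used. This gave 75 of the 54675 probe sets on the array and 40 of the 19775 genes that have a probe set of their own. The arrays were hybridised with total RNA of C4-2 cells, a castration-resistant human prostate cancer line derived from LNCaP, grown in RPMI with fetal bovine serum and transfected with the lipid reagent RNAiMax. In the miR-99a group the cells received the microRNA miR-99a, and in the si-GL2 group they received si-GL2, an siRNA named for a firefly luciferase reporter. RNA was taken 48 h after transfection in both groups, so the only labelled difference between them is the small RNA. An untransfected culture was not analysed here. Each group holds 1 array, so every value below is a single measurement without replicate error, and no test between the groups was possible.

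Genes of the G2/M programme are transcribed mostly late in the cell cycle, when the transcription factors B-MYB and FOXM1 bind with the MuvB complex at their promoters, and they are held down in quiescent and arrested cells by the DREAM complex, which shares the MuvB core. Cyclin B and its kinase CDK1 start mitosis, Aurora and Polo kinases build the spindle, the kinetochore proteins hold the chromosomes and delay anaphase until all are attached, and the anaphase-promoting complex then destroys securin and the cyclins before the cell divides. In prostate cancer, as in other tumours, the summed level of these mRNAs is read as a measure of proliferation. In bulk RNA, fewer cells in mitosis and less of an mRNA per cell cannot be told apart.

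The transfected microRNA, which defines the treatment, and a promoter element found in many but not all of these genes are shown as sequence. In the RefSeq table of GRCh38.p14, miR-99a-5p comes from chr21:16539101-16539122 on the plus strand and miR-100-5p from chr11:122152275-122152296 on the minus strand. The seed, bases 2 to 8 from the 5′ end, is in capitals, and 3 of 2370 mature miRNA names in the table carry this seed: miR-99a-5p, miR-99b-5p and miR-100-5p.
hsa-miR-99a-5p: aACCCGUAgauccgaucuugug
hsa-miR-100-5p: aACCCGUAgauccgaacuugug
PLK1 has been reported in other cells as a target of miR-100, which has the same seed. Which arm of miR-99a was transfected is not given in the labels.

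Promoter windows, from 250 bases before to 50 bases after a gene's start, were found in the same table for 34 of the 40 genes. AURKA, TTK, BIRC5, TPX2, UBE2C and FOXM1 had no entry. The windows were searched on both strands for the cell cycle homology region (CHR), TTTGAA or TTCGAA, through which MuvB complexes bind DNA, and for CCAAT, the element of the factor NF-Y. At least 1 CHR was present in 26 of the 34 genes (76.5%), against 19.5% of all 27305 genes in the table. A CHR starting within 50 bases before the gene start was found in 15 of them (44.1%, against 3.43% of all genes). CCAAT was present in 28 (82.4%, against 39.7%), and 22 genes held both elements (64.7%, against 7.85%). The genes of G1/S and DNA replication, the preceding cell cycle phase, held a CHR in 3 of 39 (7.69%) and CCAAT in 22 (56.4%). These shares describe letters in a window and are not evidence of binding.

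One gene of each role with a CHR in this stretch is printed, from 150 bases before the gene start up to the start, 5′ to 3′ on the gene's strand, with CHR and CCAAT matches of either strand in capitals. The windows are from GRCh38.p14: CCNB2 at chr15:59104996-59105145 (plus), PLK1 at chr16:23678739-23678888 (plus), CENPA at chr2:26785906-26786055 (plus), HMMR at chr5:163460482-163460631 (plus), PRC1 at chr15:90994536-90994685 (minus), CDC20 at chr1:43358831-43358980 (plus) and MKI67 at chr10:128126424-128126573 (minus).
CCNB2: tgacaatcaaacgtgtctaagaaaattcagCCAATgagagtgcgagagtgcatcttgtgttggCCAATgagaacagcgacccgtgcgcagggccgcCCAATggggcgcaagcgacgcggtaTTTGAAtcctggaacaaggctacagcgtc
PLK1: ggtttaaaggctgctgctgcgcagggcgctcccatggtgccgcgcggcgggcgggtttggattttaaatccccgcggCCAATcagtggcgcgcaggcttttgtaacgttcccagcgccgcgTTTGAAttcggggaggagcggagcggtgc
CENPA: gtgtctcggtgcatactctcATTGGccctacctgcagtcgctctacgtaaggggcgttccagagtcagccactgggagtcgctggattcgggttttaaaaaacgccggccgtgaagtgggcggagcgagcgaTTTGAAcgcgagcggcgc
HMMR: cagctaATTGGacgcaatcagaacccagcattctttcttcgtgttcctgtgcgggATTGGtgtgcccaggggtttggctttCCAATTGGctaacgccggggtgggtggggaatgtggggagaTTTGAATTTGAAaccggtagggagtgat
PRC1: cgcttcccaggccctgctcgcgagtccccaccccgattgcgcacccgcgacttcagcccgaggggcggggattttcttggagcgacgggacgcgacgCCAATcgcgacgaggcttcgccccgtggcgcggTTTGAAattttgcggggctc
CDC20: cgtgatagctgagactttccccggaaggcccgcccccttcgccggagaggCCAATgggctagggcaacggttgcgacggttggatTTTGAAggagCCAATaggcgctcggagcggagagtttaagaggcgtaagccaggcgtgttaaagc
MKI67: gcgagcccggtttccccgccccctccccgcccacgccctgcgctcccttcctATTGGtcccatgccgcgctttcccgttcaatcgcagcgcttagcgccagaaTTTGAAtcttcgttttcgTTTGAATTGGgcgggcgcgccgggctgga
In CCNB2 and PLK1 the CHR starts 29 bases before the gene start, in PRC1 20 and in CENPA 18. The promoter of HMMR holds a pair of CHR matches in a row, and that of MKI67 holds a CHR that shares a base with a CCAAT match on the other strand. In CDC20 the CHR lies farther out, 65 bases before the start, with CCAAT 100 and 55 bases before it.

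**Figure D1:**
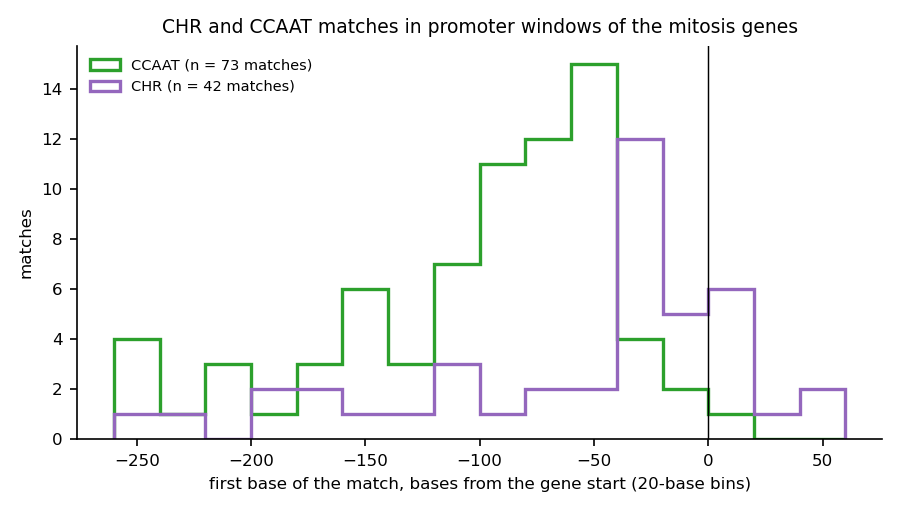
Number of CHR and CCAAT matches (y axis) by distance of the first base of the match from the gene start in bases (x axis, 20-base bins), in the 44 promoter windows of 34 mitosis genes; windows of a gene with several starts can overlap. The 42 CHR matches have a median position 29 bases before the start and the 73 CCAAT matches lie farther upstream, with a median of 87 bases before it.

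The values that follow are the signals of the deposited table, on a linear scale. A difference is always log2(signal + 16) on the miR-99a array minus that on the si-GL2 array, so that a negative value means a lower signal after miR-99a. A probe set was called expressed when its mean level over both arrays reached the median of all probe sets, a signal of 47.2. Each gene is represented by the brightest of its probe sets, and the remaining expressed ones are given as a check within the same arrays. Across the 54675 probe sets, which share the array and its scaling, Pearson's r between the 2 arrays was 0.988 on this scale. Hybridisation spikes, added equally to both, differed by between -0.12 and 0.06 over 18 probe sets. Of 12 luminal prostate marker genes fixed for the check of the cell type, the 10 measured here were all expressed, with signals of 312 to 7147 and sums of 38009.8 on the miR-99a array and 38744 on the other. Of basal epithelial, fibroblast, leukocyte and endothelial markers, 10 of 21 measured genes were above the limit, and all had signals between 1.82 and 477. Their signals summed to 109 and 113 (miR-99a, si-GL2), 533 and 471, 654 and 559, and 312 and 279 in that order. Their part in the results below was not tested.

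All 40 mitosis genes were expressed on both arrays, and all lay above the 75th percentile of level, a signal of 213.4. As a group they were slightly lower after miR-99a: 30 of 40 had a negative difference (75%), against 56.3% of all 12218 expressed genes and 57.3% of the 7738 genes above the 75th percentile. The median difference was -0.09, against -0.03 for all expressed genes. The individual differences were small, with the lowest at -0.34 (FOXM1) and the highest at 0.40 (MKI67). No gene reached 1.5-fold in either direction (0 of 40), where the share of expressed genes lower by that much was 2.9% and the share higher by that much 1.21%. At 1.2-fold, a difference of 0.26, 5 genes were lower (12.5%, against 16.7% of expressed genes) and 1 was higher (2.5%, against 9.5%). HMMR, at -0.27, only just passed this limit, while UBE2C (-0.26), CDC20 (0.26) and HJURP (0.26) just failed to reach it. More of the genes than in the background lay below 0, but fewer lay past 1.2-fold in either direction. Over the 68 expressed probe sets of these genes the excess was smaller: 44 were below 0 (64.7%), against 54% of all expressed single-gene probe sets. Past 1.2-fold, 10 of the 68 were lower (14.7%, against 16.5%) and 5 higher (7.35%, against 11.3%).

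**Figure D2:**
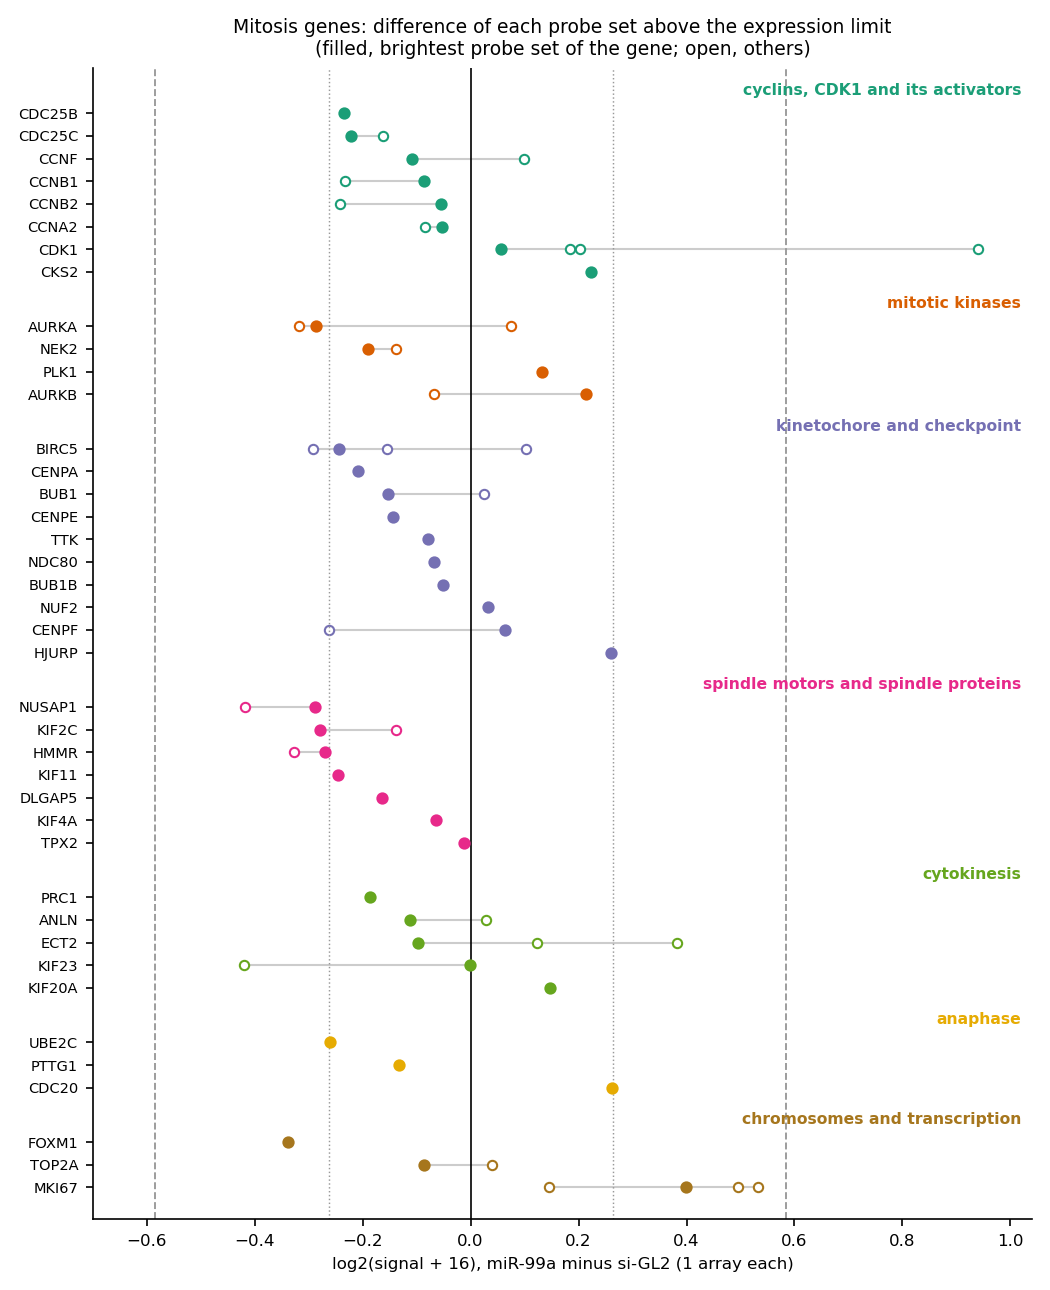
Difference in log2(signal + 16), miR-99a minus si-GL2, for the 68 expressed probe sets of the 40 mitosis genes (x axis), with 1 row per gene grouped by role; filled points are the brightest probe set of a gene, open points its others, dotted lines 1.2-fold and dashed lines 1.5-fold. All 10 probe sets of the spindle genes lie left of 0, all 4 of MKI67 lie right of it, and a dim CDK1 probe set at 0.94 is the only one past 1.5-fold.

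**Figure D3:**
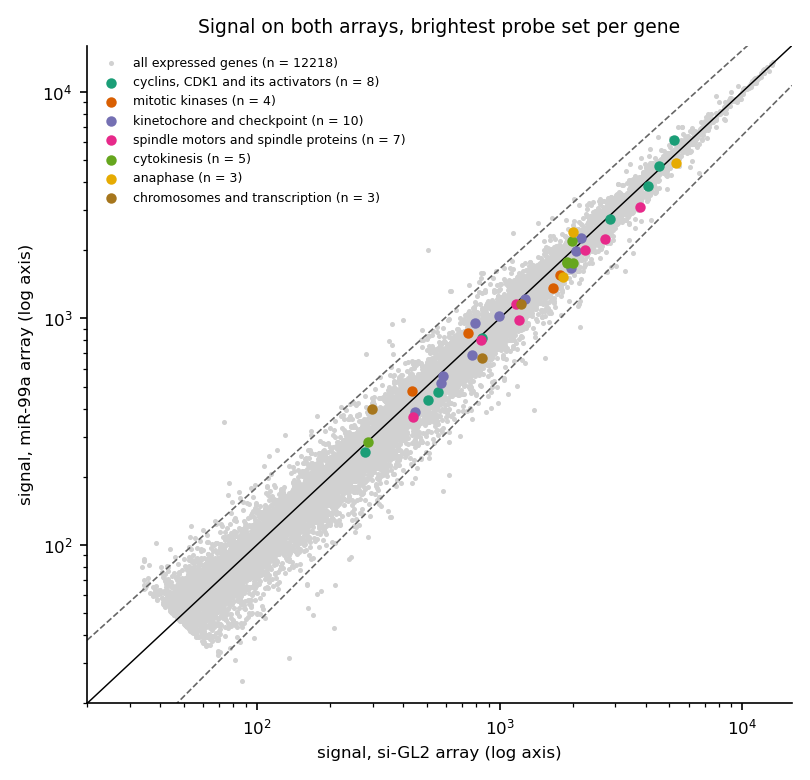
Signal of the brightest probe set of each expressed gene on the si-GL2 array (x axis, log scale) and the miR-99a array (y axis, log scale), with the mitosis genes coloured by role and all 12218 expressed genes in grey. The solid line marks equal signals and the dashed lines 1.5-fold on the log2(signal + 16) scale; all 40 mitosis genes lie between the dashed lines.

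Cyclins, CDK1 and its direct activators lay on both sides of 0, with a median of -0.07 over 8 genes and 6 of them below 0. Cyclin B1, CCNB1, the main partner of CDK1 at mitotic entry, gave a signal of 3852 on the miR-99a array and 4088 on the si-GL2 array (-0.09), and its other probe set read 662 and 781 (-0.23). Cyclin B2, CCNB2, read 2741 and 2847 (-0.05), with a much dimmer expressed probe set at 45.2 and 56.4 (-0.24) and one below the expression limit at 36.0 and 20.2 (0.52). The cyclin of S and G2 phase, CCNA2, read 818 and 849 (-0.05), and 742 and 788 (-0.09) by its dimmer probe set. All these cyclin probe sets above the limit were lower after miR-99a, by small amounts. Cyclin F, CCNF, which does not bind a CDK but directs ubiquitination, read 257 and 278 (-0.11), and a dimmer probe set went the other way, at 72.2 and 66.4 (0.10).

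CDK1, the kinase of mitotic entry, was higher after miR-99a by each of its 4 probe sets. The brightest read 4705 after miR-99a and 4523 after si-GL2 (0.06), and the next ones 4293 and 3776 (0.18) and 3429 and 2977 (0.20). The dimmest read 205 and 99.3 (0.94), and this was the only expressed mitosis probe set of 68 past 1.5-fold; 1.53% of all 22407 expressed single-gene probe sets were that much higher and 2.76% that much lower. Its difference lies far from those of the brighter CDK1 probe sets, which span 0.06 to 0.20. CKS2, the small subunit that binds CDK1 and helps it act on phosphorylated substrates, read 6108 and 5227 (0.22), the highest difference in this role by brightest probe set. The phosphatases that remove inhibitory phosphates from CDK1 were lower: CDC25B read 472 and 557 (-0.23). CDC25C read 434 and 509 (-0.22), then 227 and 256 (-0.16) by the next brightest, while its remaining probe set was near 0 signal on both arrays, at 1.47 and 1.0.

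The mitotic kinases were split, 2 below and 2 above 0, with a median of -0.03. Aurora A, AURKA, which matures centrosomes and builds spindle poles, read 1361 after miR-99a and 1663 after si-GL2 (-0.29), and another bright probe set read 1276 and 1594 (-0.32). Its dimmest probe set, at 126 and 119 (0.08), was slightly higher. NEK2, a centrosome kinase, was lower by both of its probe sets, at 1549 and 1768 (-0.19) and at 534 and 589.8 (-0.14). PLK1, the Polo kinase of mitotic entry and spindle assembly, went the other way, at 478 after miR-99a and 434 after si-GL2 (0.13) by its 1 probe set. Aurora B, AURKB, the kinase of the chromosomal passenger complex that corrects faulty attachments, read 865 and 744 (0.21), and its dim probe set read 59.7 and 63.4 (-0.07).

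Kinetochore and checkpoint genes had a median of -0.07 over 10 genes, 7 of them below 0, and none passed 1.2-fold by its brightest probe set. BUB1, a checkpoint kinase, read 690 after miR-99a and 769 after si-GL2 (-0.15), and its other expressed probe set read 345 and 339 (0.02). BUB1B, which encodes the checkpoint protein BUBR1, read 1983 and 2056 (-0.05). TTK, the kinase MPS1 that starts checkpoint signalling, read 554 and 586 (-0.08). These checkpoint genes were all lower by their brightest probe sets, by no more than 0.15. NDC80 and NUF2 form the arm of the Ndc80 complex that binds microtubules, and they lay on opposite sides of 0: NDC80 read 1216 and 1275 (-0.07). NUF2 read 1019.6 after miR-99a and 996 after si-GL2 (0.03).

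The centromere genes were lower to a similar small degree or mixed, except HJURP, which was higher. CENPA, the histone H3 variant that marks centromeres, read 387 and 449 (-0.21). A further probe set that the annotation gives to both CENPA and SLC35F6, and that is therefore not counted, read 1418 and 1575 (-0.15). HJURP, the chaperone that loads CENPA, was higher instead, at 949.8 after miR-99a and 791 after si-GL2 (0.26). CENPE, a kinesin that moves chromosomes to the spindle equator, read 516 and 572 (-0.14). CENPF, a large protein of the outer kinetochore, was at odds with itself, its bright probe set reading 2252 and 2153 (0.06) and another 478 and 576 (-0.26). BIRC5, which encodes survivin of the chromosomal passenger complex, was lower by 3 of its 4 probe sets. They read 1661 and 1969 (-0.24), 1541 and 1719 (-0.16), and 215 and 267 (-0.29), and the fourth read 203 and 188 (0.10).

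The genes of spindle motors and spindle proteins were the role with the lowest median, -0.25, and all 7 lay below 0. All 10 of their expressed probe sets were lower after miR-99a, between -0.42 and -0.01, where 54% of all expressed single-gene probe sets were below 0. At 1.2-fold 3 of the 7 genes were lower (42.9%, against 16.7% of expressed genes) and 0 higher (against 9.5%). These counts depend on which genes were placed in this role. Of the kinesin genes placed in other roles, CENPE was at -0.14, KIF23 at -0.0003 and KIF20A at 0.15. NUSAP1, which bundles spindle microtubules near chromosomes, read 3099 after miR-99a and 3788 after si-GL2 (-0.29), and its other probe set read 885 and 1188 (-0.42). KIF2C, the kinesin MCAK that depolymerises microtubule ends, read 984 and 1197 (-0.28), and 481 and 531 (-0.14) by its other probe set. HMMR, a microtubule-associated hyaluronan receptor, read 2246 and 2710 (-0.27), with 1223 and 1538 (-0.33) by the other. In these 3 genes both probe sets therefore gave the lower signal on the miR-99a array. KIF11, the kinesin Eg5 that pushes spindle poles apart, was measured by 1 probe set, at 367 and 438 (-0.25). DLGAP5, which stabilises spindle fibres near chromosomes, read 2003 and 2245 (-0.16). KIF4A, a chromosome-bound kinesin, read 801 and 839 (-0.06), and TPX2, the activator of Aurora A on the spindle, was nearly equal on both arrays, at 1160.1 and 1170.1 (-0.01).

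Cytokinesis genes had a median of -0.10 over 5 genes, 4 of them below 0, and 5 of their 9 expressed probe sets were below 0. PRC1, which crosslinks the microtubules of the central spindle, read 1763 after miR-99a and 2008 after si-GL2 (-0.19). KIF20A, a kinesin of the central spindle, was higher, at 2196 and 1982 (0.15). KIF23, the motor subunit of centralspindlin, read 286.0 and 286.1 by its brightest probe set (-0.0003), but 45.5 and 66.3 (-0.42) by a dim one. ANLN, the actin-binding protein anillin of the contractile ring, read 1757 and 1901 (-0.11) and, by its other probe set, 812 and 796 (0.03). ECT2, the exchange factor that activates RhoA at the division plane, read 1767 and 1892 (-0.10), then 683 and 627 (0.12), and 96.0 and 69.9 (0.38) by its dimmest probe set. For KIF23 and ECT2 the probe set farthest from 0 was the dimmest one.

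Of the anaphase genes, CDC20 lay above 0 and the other two below. CDC20, the co-activator through which the anaphase-promoting complex starts anaphase, read 2401 after miR-99a and 2000.5 after si-GL2 (0.26). UBE2C, the ubiquitin-conjugating enzyme of the same complex, read 1520.0 and 1825 (-0.26). PTTG1, which encodes securin, the inhibitor of separase that this complex destroys, read 4846 and 5315 (-0.13). Each was measured by 1 single-gene probe set, so no check within the arrays is available.

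The last role, of chromosomes and transcription, held both extremes of the 40 genes. FOXM1, the transcription factor that drives many of the other genes on the list, was lowest, at 669 after miR-99a and 849.9 after si-GL2 (-0.34). It was measured by 1 probe set of the kind marked _x_, whose probes can cross-hybridise with other transcripts. MKI67, which encodes the proliferation antigen Ki-67 that coats mitotic chromosomes, was highest, at 399.6 and 299 (0.40). Its other 3 probe sets read 319 and 222 (0.49), 217 and 195 (0.14), and 210.5 and 140.5 (0.53). All 4 gave the higher signal on the miR-99a array. TOP2A, the topoisomerase that untangles sister chromatids, read 1154 and 1226 (-0.09), and 525 and 511 (0.04) by its other expressed probe set.

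Probe sets of the same gene showed how far readings of a gene differ within the same arrays. They give no measure of error between cultures, transfections or arrays. Of the 40 genes, 20 had at least 2 expressed probe sets. In 9 of these all were below 0, in 2 (CDK1 and MKI67) all were above 0, and in 9 (45.0%) they lay on both sides, against 43.8% of the 5842 genes with at least 2 expressed probe sets. The median gap between the brightest and the second-brightest probe set of a gene was 0.13 for the mitosis genes and 0.14 for all genes. The second-brightest probe sets of the 20 genes had a median of -0.14, with 13 below 0 (65.0%), against -0.01 and 51.9% over all genes.

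**Figure D4:**
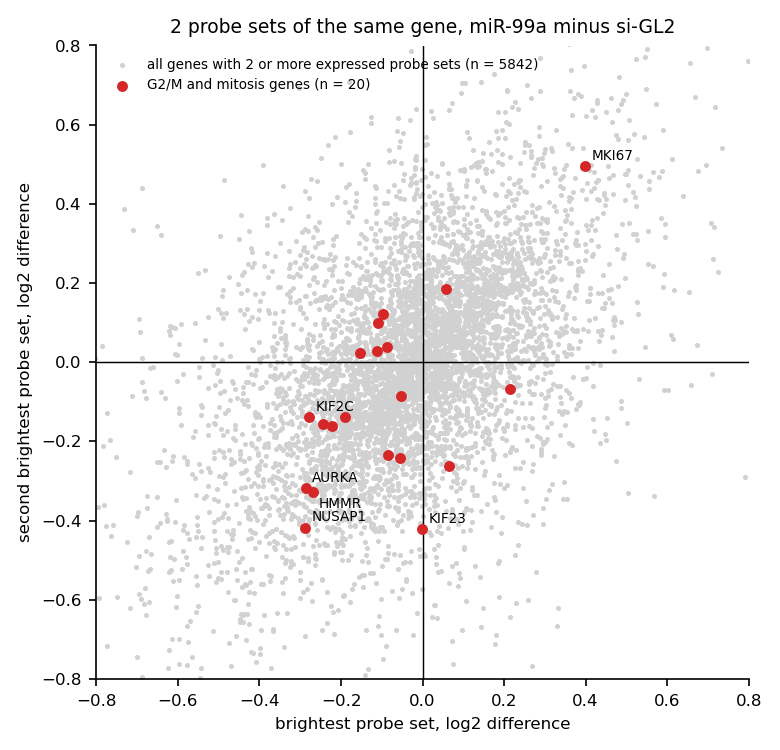
Difference (log2, miR-99a minus si-GL2) by the brightest probe set of a gene (x axis) and by its second-brightest (y axis), for the 20 mitosis genes with at least 2 expressed probe sets (red) and all 5842 such genes (grey; points beyond the axes are not drawn). Genes named lie past 1.2-fold by at least 1 of the 2 probe sets; NUSAP1, HMMR, AURKA and KIF2C lie in the lower left and MKI67 in the upper right.

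Genes with and without a CHR in the promoter window overlapped in their differences. The 26 genes with a CHR had a median of -0.08 and ranged from -0.29 (NUSAP1) to 0.40 (MKI67), with 18 below 0. The 8 without one had a median of -0.11, ranged from -0.28 (KIF2C) to 0.21 (AURKB), and 6 lay below 0. In the stretches printed above, those of HMMR (-0.27) and MKI67 (0.40) each hold a pair of CHR matches, and the genes lie on opposite sides of 0. Whether a CHR bears on the difference was not tested.

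Other mitosis genes, in 5 lists of 97 genes of which 95 were measured here, showed a similar small shift by their brightest probe sets. Of the 95, 74 were below 0 (77.9%, against 56.3% of expressed genes), and the median was -0.10, against -0.03. Past 1.5-fold there was 1 lower gene and 0 higher ones, where the shares of expressed genes were 2.9% and 1.21%. The 26 other kinetochore and checkpoint genes had the lowest median of the 5 lists, -0.16, with 23 below 0. Of these the lowest were CENPO, of the inner kinetochore, at 121 after miR-99a and 184 after si-GL2 (-0.55), and SPC24, of the Ndc80 complex, at 373 and 543 (-0.52). Another expressed probe set of CENPO read 107 and 89.1 (0.23), and a probe set of SPC24 below the limit 15.4 and 1.0 (0.89). The highest were CENPL (0.01, or -0.12 by its other probe set) and the checkpoint gene ZW10 (0.08). By second-brightest expressed probe sets, where a gene had one, the medians of the 5 lists were not all negative. They ran from -0.10 (anaphase-promoting complex) to 0.12 (other spindle and centrosome genes).

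The 21 other spindle and centrosome genes had a median of -0.09, with 14 below 0. CEP55, which brings the abscission machinery to the midbody, read 649 after miR-99a and 1146 after si-GL2 (-0.80) by its 1 probe set, and was the gene past 1.5-fold. KIF22, a chromosome-arm kinesin, had a difference of -0.43 by the brighter of its probe sets and of 0.13 by the dimmer. Highest were the microtubule polymerase gene CKAP5 (0.05) and PLK4, the kinase of centriole duplication (0.09).

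Among 15 genes of condensin, cohesin and separase (median -0.04, 9 below 0), the condensin genes SMC2 (-0.26) and NCAPH (-0.24) were lowest. The condensin gene NCAPD2, at 521 and 372 (0.47), and the separase gene ESPL1 (0.19) were highest. The 16 measured genes of the anaphase-promoting complex had a median of -0.10, with 13 below 0; at 1.2-fold 0 were lower and 1, CDC23, was higher (6.25%), against 16.7% and 9.5% of expressed genes. They ran from ANAPC16 (-0.26) and the co-activator FZR1 (-0.21) up to ANAPC13 (0.0012) and CDC23 (0.26). Another probe set of CDC23 was at -0.10, and the other 3 expressed probe sets of FZR1 were at -0.02, 0.07 and 0.14.

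Regulators of G2/M promoters and of mitotic entry had a median of -0.11 over 17 genes, 15 of them below 0. WEE1, the kinase that holds CDK1 inactive, was lowest, at 1009.9 after miR-99a and 1490.1 after si-GL2 (-0.55), with its dimmer probe set at 81.2 and 111 (-0.39). PKMYT1, the other inhibitory kinase of CDK1, read 470 and 580 (-0.30). E2F4, the E2F factor of the DREAM complex, was highest, at 332 and 245 (0.41) and, by its other probe set, 310.1 and 238 (0.36). LIN9, of the MuvB core, was next, at 0.01.

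Genes of G1/S and DNA replication, measured in the same way, did not share the negative median. Of 43 measured genes 19 were below 0 (44.2%), and the median was 0.03. They ranged from FEN1, the flap endonuclease (887 and 1229, -0.46), and GINS3 (-0.33) to the helicase subunit MCM3 (0.48) and cyclin E1, CCNE1 (589.6 and 381, 0.61). At 1.2-fold 5 were lower (11.6%, against 16.7% of expressed genes) and 6 higher (14%, against 9.5%). Whether the mitosis and the replication genes differ was not tested, since each condition has 1 array.

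**Figure D5:**
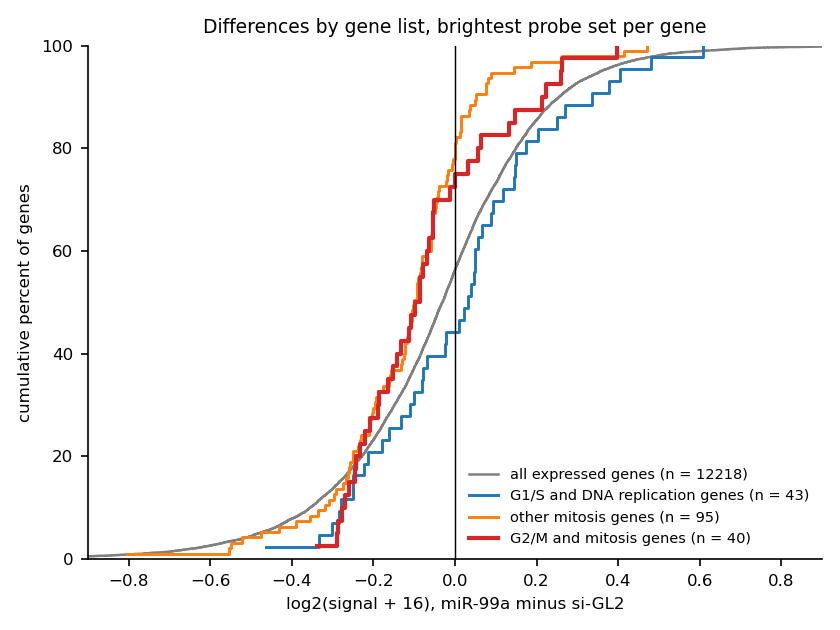
Cumulative percent of genes (y axis) by difference in log2(signal + 16), miR-99a minus si-GL2, of the brightest probe set (x axis), for 40 G2/M and mitosis genes, 95 other mitosis genes, 43 genes of G1/S and DNA replication and all 12218 expressed genes. Each curve crosses 0 at its share of lower genes: 75% for the G2/M and mitosis genes, 77.9% for the other mitosis genes, 44.2% for the G1/S genes and 56.3% for all.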

How the data were processed

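Per the labels' protocols, RNA was isolated with Trizol, then labelled and hybridised as Affymetrix prescribes. For each array the authors deposited a linear signal intensity for every probe set. How probes were summarised and arrays scaled is not given in the sources used here. Array medians were 47.8 (miR-99a) and 47.4 (si-GL2), 0.01 apart in log2(signal + 16), so signals were used as deposited. The number of arrays, 1 per group, limits the precision. Differences on this scale understate changes of dim genes.

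Names came from the platform annotation, and probe sets with several genes stayed out of gene counts. Size rules of 1.5-fold and 1.2-fold describe and do not test. The 1.2-fold rule was set with the differences among the members known to be small. Members and gene lists were chosen with earlier results of these data known. Named genes are the 40 members, the 2 highest and 2 lowest expressed genes of each other list, and partner genes marked as picked once their values were known. List genes with no single-gene probe set here (7) were not analysed here. The counting of genes past 1.5-fold was checked on simulated arrays. Alternatives concerned the pseudocount, scaling, level trend, expression limit and choice of probe set. Python 3.11.15, numpy 2.4.6, pandas 2.3.3 and matplotlib 3.10.9 were used.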

Additional observations from a re-analysis of the deposited data

Results flagged for a closer look

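Probe sets below the expression limit stood outside the counts, and 2 of the 7 among the mitosis genes gave a signal at least 1.5-fold above the control array. For BUB1 such a probe set read 58.0 on the miR-99a array and 24.4 on the si-GL2 array (0.87), while its 2 expressed probe sets were at -0.15 and 0.02. For CENPF one read 24.4 and 6.28 (0.86), while its 2 expressed probe sets were at 0.06 and -0.26. The share of all probe sets below the limit that were this much higher was not counted, so the 2 have no background beside them. Neither was checked by a replicate.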

How the results depend on the processing

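The median difference of the mitosis genes stayed below 0, and 0 genes reached 1.5-fold, under all 9 other settings listed in the methods. The same held under 1 setting chosen after seeing the data, the second-brightest probe set. By that probe set, available for 20 genes, 13 were below 0. Without probe sets marked _x_ or _s_, 29 of the 40 genes remained, and FOXM1 and MKI67 were among those that dropped out. The median of all genes was also below 0 under every setting, between -0.0401 and -0.0070. The mitosis median minus that median was -0.0616 as reported, and ranged from -0.1277 (second-brightest) to -0.0395 (without _x_ and _s_). The share of mitosis genes below 0 was 75% as reported and 70% with quantile normalization or the running median removed. It was 69% without _x_ and _s_ (20 of the 29 genes left) and 67.5% by the mean over probe sets. The number 1.2-fold higher was 1 as reported, and 3 with a pseudocount of 1 and with quantile normalization. It was 2 with the running median over level removed and with the mean over probe sets. By that mean 3 were 1.2-fold lower, not 5. For these alternatives the shares of all genes below 0 or past 1.2-fold were not computed, so the counts have no background beside them. With the 75th percentile as limit, 5 genes had probe sets of both signs, not 9; fewer probe sets enter there. Without probe sets marked _x_ or _s_, AURKA was at 0.075 in place of -0.29, ECT2 at 0.38 in place of -0.10 and KIF23 at -0.42 in place of -0.0003, because the dimmest probe set of each is then the only one left. The other spindle and centrosome list (median -0.09) was at -0.044 with quantile normalization, -0.020 as means over probe sets, -0.0093 without _x_ and _s_ and 0.12 by the second-brightest probe sets; by these the other kinetochore list was at -0.032 and the regulators at -0.0042. The cause of these moves was not tested. Of the 40 genes, 29 kept their sign under every alternative that could be computed for them (21 below 0, 8 above). No paired analysis was possible because each group holds 1 array.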

Other observations

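Partners of the mitosis genes in textbook complexes, chosen after their values were seen, are given here as values. In the Ndc80 complex NDC80 was at -0.07, NUF2 at 0.03, SPC25 at -0.13 and SPC24 at -0.52. In the chromosomal passenger complex AURKB was at 0.21, BIRC5 at -0.24, the borealin gene CDCA8 at -0.09 and the scaffold gene INCENP at 0.0035. The centralspindlin genes KIF23 (-0.0003) and RACGAP1 (-0.02) were both near 0 by their brightest probe sets. These are values of 1 array per condition.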
